A study of Mus musculus with 9 samples.

Results

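DNA replication machinery genes encode the proteins that license origins, unwind the duplex, copy both strands and rebuild chromatin behind the fork. The 44 genes described here were taken by gene name, and all 44 had a row among the 55536 genes of the deposited count table and a row among the 12849 genes of the deposited log2 table. They were grouped into 10 sets by complex or step. The libraries came from mouse spleen B cells labelled as pre-GC, before the germinal centre, the structure in lymphoid tissue where B cells divide rapidly and mutate their antibody genes. In 5 libraries, labelled p52Ki and titled p52ki/ki, the mice carried a homozygous knock-in at p52, an NF-kB subunit that is processed from the product of Nfkb2. The other 4 libraries were labelled WT. The sources used here do not give the kind of knock-in, the mouse strain, age, immunisation or sorting gate, nor whether each library is a separate mouse. The p-values therefore cover the spread among libraries, part of which may be technical. Germinal centre B cells, which the design text also names, were not analysed here.

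Replication starts when the origin recognition complex, with Cdc6 and Cdt1, loads the ring-shaped MCM helicase onto DNA. Kinases, Mcm10, Cdc45 and the GINS complex then switch the helicase on, polymerase alpha with primase lays primers, and polymerases delta and epsilon extend them on the sliding clamp PCNA. Most of these genes are transcribed around entry into S phase under E2F transcription factors, so their mRNA is high in cycling lymphocytes, such as activated and germinal centre B cells, and low in resting ones.

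Promoter sequence of 250 bases before to 50 bases after the start was at hand for 36 of the 44 genes (RefSeq, GRCm38.p6). E2F-type motifs were searched on both strands as TTTCCCGC, TTTCGCGC, TTTGCCGC and TTTGGCGC, with overlapping matches allowed. A match stood in at least 1 promoter of 17 of the 36 genes (47.2%), against 704 of 27025 genes in the whole promoter table (2.61%). Of the 12849 genes tested here, 8740 had a promoter in that table, and 421 of those held a match (4.82%). The shorter motif CCAAT stood in promoters of 24 of the 36 (66.7%), against 43.2% of those 8740 genes. Among 35 further replication genes with a promoter, described at the end, 10 held an E2F-type match (28.6%) and 13 held CCAAT (37.1%). Of the 18 genes with a promoter that fell in p52Ki, 10 held an E2F-type match, and of the 18 that did not pass the test, 7 did. The stretches below are shown because they carry such matches upstream of genes from different steps, 6 that fell (Mcm5, Mcm6, Cdc6, Pola1, Hells, Uhrf1) and 2 that did not pass (Orc1, Gins3). Each runs 20 bases beyond its outermost match on the strand of the gene, and capitals mark the matched letters, overlapping matches as 1 block.
Mcm5 (chr8:75109336-75109387, plus strand): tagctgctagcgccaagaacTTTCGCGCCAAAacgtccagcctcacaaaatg
Mcm6 (chr1:128359725-128359835, minus strand): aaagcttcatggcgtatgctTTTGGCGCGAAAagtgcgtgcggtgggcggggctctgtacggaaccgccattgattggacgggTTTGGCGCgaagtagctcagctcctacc
Cdc6 (chr11:98907993-98908040, plus strand): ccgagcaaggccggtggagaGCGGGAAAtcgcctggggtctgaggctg
Pola1 (chrX:93632266-93632313, minus strand): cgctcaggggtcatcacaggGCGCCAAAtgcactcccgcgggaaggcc
Hells (chr19:38930908-38930955, plus strand): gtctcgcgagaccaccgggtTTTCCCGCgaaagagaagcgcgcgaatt
Uhrf1 (chr17:56304108-56304155, plus strand): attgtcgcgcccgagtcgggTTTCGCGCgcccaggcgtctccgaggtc
Orc1 (chr4:108579407-108579454, plus strand): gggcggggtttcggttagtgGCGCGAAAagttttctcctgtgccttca
Gins3 (chr8:95633498-95633545, plus strand): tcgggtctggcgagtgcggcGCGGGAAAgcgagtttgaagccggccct
A match is a description of the letters, not evidence of a bound factor. Whether the matches bear on the differences between genotypes below was not tested.

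Library-wide values bear on the comparison as follows. Total counts ran from 4492160 to 6647650 in p52Ki and from 7368604 to 7937579 in WT (exact two-sided permutation p = 0.0159, adjusted 0.0239 over 3 measures), yet 15504 to 16634 genes were detected in p52Ki and 14033 to 14793 in WT (exact two-sided permutation p = 0.00794, the smallest that 5 against 4 libraries allow, adjusted 0.0238). The share of counts on mitochondrial genes did not pass (2.17% ± 0.303 in p52Ki and 2.45% ± 0.289 in WT, SD, n = 5 and 4, exact permutation p = 0.238). Defining B cell genes were abundant, with 7 markers summing to 10941 to 14720 CPM in p52Ki and 9759 to 10865 CPM in WT. Of 9 T cell markers, Cd2 and Lck gave nearly all of the summed 321 to 444 CPM in p52Ki and 362 to 461 CPM in WT, while Cd3d, Cd3e, Cd3g and Trac averaged at most 1.52 CPM in either genotype. The 8 myeloid markers summed to 60.7 to 159 CPM in p52Ki and 19.6 to 93.4 CPM in WT, with S100a8 and S100a9 at 0. Among them Lyz2 averaged 28.5 CPM in p52Ki and 7.52 CPM in WT and did not pass (log2 fold change 1.92, edgeR adjusted p = 0.0685). The 6 erythroid and megakaryocyte markers summed to at most 14.9 CPM. The 5 plasma cell markers summed to 674 to 1256 CPM in p52Ki and 1436 to 1894 CPM in WT, with Tnfrsf17 at or near 0. Within that list Sdc1, a plasma cell surface marker, averaged 22.0 CPM in p52Ki and 1.21 CPM in WT and did not pass (log2 fold change 4.17, edgeR adjusted p = 0.0762). Of these lists, Cd79a (log2 fold change 0.85) and Cd2 (0.47) rose and Jchain (-1.15) fell (edgeR adjusted p = 0.00906, 0.047 and 0.0116). The part of these library-wide differences in the results below was not tested.

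Many replication genes were lower in p52Ki pre-GC B cells: 22 of the 44 fell, 0 rose and 22 did not pass the test (edgeR quasi-likelihood, Benjamini-Hochberg over 12849 genes, threshold 0.05). Over all genes tested, 4.04% were called lower and 4.49% higher. The median log2 fold change of the 44 genes, p52Ki over WT, was -0.85, and that of all genes tested was 0.03. Of the 44, 14 had an estimate of 2-fold lower or more, and no gene had an estimate above 0.00. Of all genes tested, 48.2% had an estimate below 0. In 23 of the 44 every p52Ki library lay below every WT library, which held for 6.53% of all genes tested. In bulk RNA, fewer cells in S phase and less of each mRNA per cell cannot be told apart. With 1 p52Ki library left out, replicates 1 to 5 in turn, 14, 18, 12, 26 and 13 of the 44 fell, and with 1 WT library left out, replicates 1 to 4 in turn, 13, 18, 13 and 13 fell. The calls of 10 genes (Mcm2, Mcm5, Mcm7, Pola1, Rpa1, Rfc1, Rfc3, Fen1, Lig1 and Slbp) held in each of those 9 fits.

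**Figure D1:**
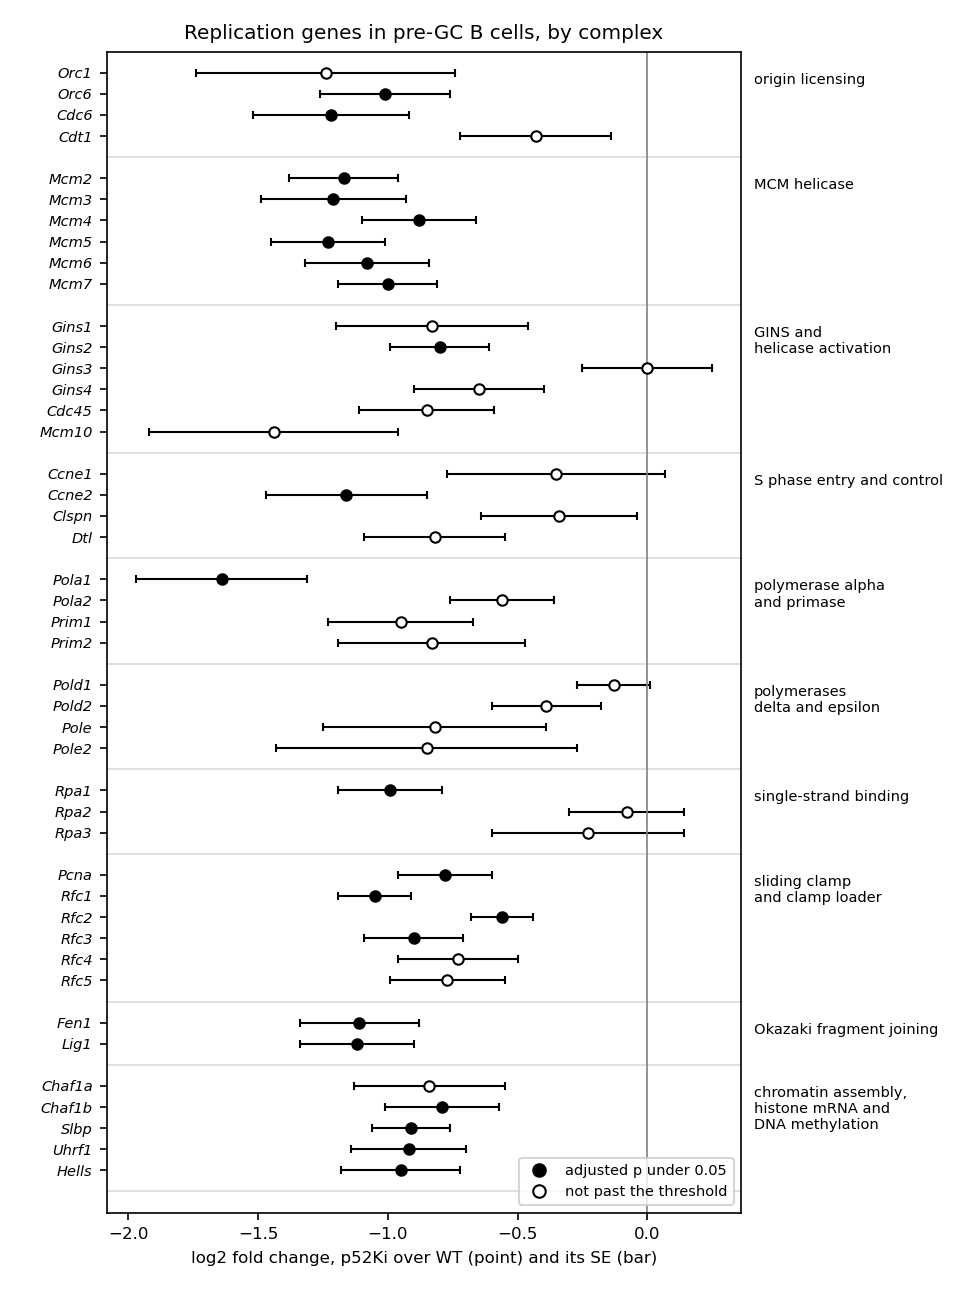
Log2 fold change of each of the 44 replication genes, p52Ki over WT (points), with its standard error (bars), grouped by complex; filled points passed the test (adjusted p under 0.05). All 6 MCM subunits sit between -1.23 and -0.88, while Gins3, Rpa2 and Pold1 sit at 0.00, -0.08 and -0.13.

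The 6 subunits of the MCM ring, the motor that unwinds DNA at the fork, all fell, and their p52Ki and WT libraries did not overlap. Mcm2 (chromosome 6, 88883474 to 88898780) had 226, 355, 307, 397 and 187 CPM in p52Ki replicates 1 to 5, against 641, 778, 617 and 616 CPM in WT replicates 1 to 4 (CPM, the count relative to the scaled library total). Mcm5 had 238, 442, 323, 544 and 282 CPM in the p52Ki libraries, against 987, 751, 777 and 914 CPM in the WT libraries. The highest p52Ki value of each was replicate 4, and it still lay under the lowest WT value. Mcm2 fell by 1.17 on the log2 scale (SE 0.21, edgeR adjusted p = 0.00687) and Mcm5 fell by 1.23 on that scale (SE 0.22, edgeR adjusted p = 0.0078). Mcm7, whose locus also holds the microRNA genes Mir25 and Mir93, averaged 254 ± 75 CPM in p52Ki and 509 ± 43.5 CPM in WT (SD, n = 5 and 4; edgeR adjusted p = 0.0104).

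Mcm3 averaged 356 ± 150.5 CPM in p52Ki and 826 ± 204 CPM in WT, a log2 fold change of -1.21 (SE 0.28, edgeR adjusted p = 0.0201). Mcm6 averaged 442 ± 162 CPM in p52Ki and 932 ± 164 CPM in WT (-1.08, SE 0.24, edgeR adjusted p = 0.0179). Mcm4 had the smallest difference of the ring, 251 ± 80.5 CPM in p52Ki and 463 ± 66.4 CPM in WT (-0.88, SE 0.22, edgeR adjusted p = 0.03). Summed, the 6 subunits took 1378, 2249, 1854, 2952 and 1382 CPM in the p52Ki libraries, against 4839, 4121, 4068 and 3973 CPM in the WT libraries. The calls of Mcm3, Mcm4 and Mcm6 ended in 4, 7 and 1 of the 9 fits without 1 library, at adjusted p up to 0.0591, 0.0832 and 0.0502: Mcm3 lacking replicate 1 or 3 of either genotype, Mcm4 lacking any library but p52Ki replicate 2 or 4, and Mcm6 without WT replicate 1.

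**Figure D2:**
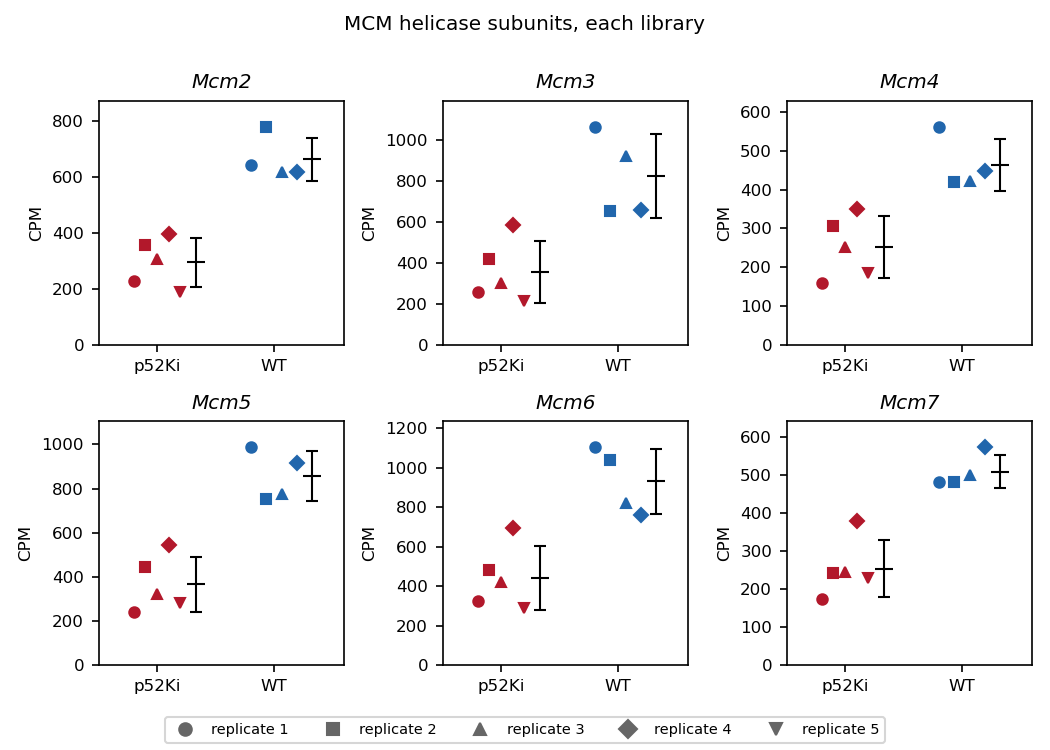
CPM of the 6 MCM subunits in each library (points, shape by replicate number, which does not pair libraries) with mean and SD (bars); p52Ki is left of WT. In each panel the 5 p52Ki values lie below the 4 WT values, and p52Ki replicate 4 is the highest of its genotype.

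Per kilobase of annotated exon the ring kept much the same balance between subunits in both genotypes. Mcm3, Mcm5 and Mcm6 each made up 20.6% ± 2.09, 20.3% ± 1.37 and 20.9% ± 1.21 of the summed MCM level per kilobase in p52Ki, and 22.4% ± 3.89, 22.1% ± 2.15 and 20.5% ± 2.74 in WT (SD, n = 5 and 4). Mcm2 was the lowest per kilobase in both, at 9.50% ± 1.03 in p52Ki and 9.88% ± 1.64 in WT. Mcm7 stood at 13.0% ± 2.01 in p52Ki and 11.9% ± 1.86 in WT. Mcm4 was the exception in range, at 14.2% to 16.7% in p52Ki libraries and 12.6% to 13.9% in WT libraries. No test was made of these shares, which depend on the annotated exon lengths.

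Among the licensing factors that load the ring, Orc6 and Cdc6 fell, while Orc1 and Cdt1 did not pass. Cdc6, the loading ATPase, had 45.4, 71.2, 75.9, 165 and 85.6 CPM in p52Ki replicates 1 to 5, against 171, 215, 199 and 239 CPM in WT replicates 1 to 4. The genotypes were separated by a narrow gap, set by p52Ki replicate 4. Cdc6 fell by 1.22 on the log2 scale (SE 0.30, edgeR adjusted p = 0.0285), and Orc6, the smallest subunit of the origin recognition complex, averaged 51.0 ± 15.1 CPM in p52Ki and 103 ± 18.9 CPM in WT (edgeR adjusted p = 0.0261). Orc1, the subunit whose level changes through the cell cycle, had few reads, at 12.2, 14.1, 12.6, 13.6 and 6.74 CPM in p52Ki, against 23.4, 27.8, 53.9 and 7.03 CPM in WT. WT replicate 4 lay among the p52Ki values and WT replicate 3 far above the other libraries. The log2 fold change of Orc1 was -1.24 (SE 0.50, edgeR adjusted p = 0.167), and without WT replicate 4 it was -1.54 and passed (edgeR adjusted p = 0.0497). Cdt1, the loading partner of Cdc6, had 33.4, 72.0, 109, 85.8 and 66.7 CPM in p52Ki, against 112, 111, 97.8 and 74.1 CPM in WT, with overlap (95% interval of the log2 fold change -1.06 to 0.20, edgeR adjusted p = 0.448). The calls of Orc6 and Cdc6 each ended in 6 of the 9 fits without 1 library (adjusted p up to 0.0785 and 0.077): both when replicate 3 or 4 of WT or replicate 3 or 5 of p52Ki was left out, Orc6 also without WT replicate 1 or p52Ki replicate 1, and Cdc6 also without WT replicate 2 or p52Ki replicate 2.

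Of the genes that turn the loaded ring into a moving helicase, only Gins2 fell at the threshold used. The GINS complex has 4 subunits, which join the ring together, and their mRNAs gave unequal values. Gins2 had 54.2, 56.3, 48.0, 61.1 and 54.5 CPM in p52Ki, against 95, 68.8, 112 and 107 CPM in WT (log2 fold change -0.80, SE 0.19, edgeR adjusted p = 0.0235). Gins3 had 48.2, 42.7, 33.6, 34.6 and 57.6 CPM in p52Ki, against 35.0, 39.6, 57.4 and 41.3 CPM in WT. The Gins3 values of both genotypes covered the same range, with a 95% interval of -0.55 to 0.55 on the log2 scale (edgeR adjusted p = 0.999). The other subunits, Gins4 at -0.65 (SE 0.25) and Gins1 at -0.83 (SE 0.37) on the log2 scale, did not pass (edgeR adjusted p = 0.14 and 0.221). Of the exonic bases of Gins2, 67.3% overlap exons of Gse1 on the other strand, and without strand the reads of that stretch cannot be assigned to either gene; Gse1 averaged 43.9 ± 11.3 CPM in p52Ki and 51.2 ± 21.6 CPM in WT (edgeR adjusted p = 0.769). Gins2 lost its call in the fits lacking replicate 1, 3 or 4 of WT or replicate 1, 3 or 5 of p52Ki (adjusted p up to 0.0766).

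Cdc45, which completes the active helicase with GINS and MCM, had 38.5, 76.0, 43.8, 88.6 and 81.0 CPM in p52Ki, against 114, 109, 108 and 141 CPM in WT. Every p52Ki value of Cdc45 lay below every WT value, yet the fit did not call it (-0.85, SE 0.26, edgeR adjusted p = 0.0671), though it did without p52Ki replicate 4 (edgeR adjusted p = 0.0481). Mcm10, a factor for helicase activation, varied widely within p52Ki, at 13.1, 71.2, 23.7, 106 and 38.7 CPM, against 138, 139, 172 and 99.8 CPM in WT. p52Ki replicate 4 reached the WT range, and the log2 fold change of -1.44 (SE 0.48) did not pass (edgeR adjusted p = 0.0934). Without p52Ki replicate 4 it was -1.88 and passed (edgeR adjusted p = 0.0227).

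Among regulators of S phase entry and fork control, Ccne2 fell and Ccne1, Clspn and Dtl did not pass. Cyclins E1 and E2 both activate the kinase CDK2 at the start of S phase. Ccne2 had 21.9, 29.1, 14.9, 46.0 and 35.2 CPM in p52Ki, against 58.3, 62.9, 58.6 and 83.5 CPM in WT, without overlap (log2 fold change -1.16, SE 0.31, edgeR adjusted p = 0.0406). Ccne1 had 45.9, 47.1, 42.0, 62.5 and 8.47 CPM in p52Ki, against 60.2, 46.8, 60.1 and 43.0 CPM in WT. Apart from p52Ki replicate 5, the Ccne1 libraries of both genotypes shared a range (95% interval -1.27 to 0.57, edgeR adjusted p = 0.717). Clspn, or claspin, an adaptor of the replication checkpoint, averaged 48.0 ± 11.9 CPM in p52Ki and 60.9 ± 23.2 CPM in WT (edgeR adjusted p = 0.589). Dtl, the substrate receptor that marks Cdt1 for destruction, averaged 122 ± 34.0 CPM in p52Ki and 217 ± 79.5 CPM in WT (edgeR adjusted p = 0.0898, and 0.0382 without WT replicate 2). Exons of Ints8 on the other strand cover 17.4% of the exonic bases of Ccne2, and without strand the reads of that stretch cannot be assigned to either gene. Ints8 averaged 24.6 ± 11.8 CPM in p52Ki and 50.6 ± 24.8 CPM in WT (log2 fold change -1.04, edgeR adjusted p = 0.155). The call of Ccne2 held only without p52Ki replicate 4 among the 9 fits without 1 library; with any other library left out (WT replicates 1 to 4, p52Ki replicates 1, 2, 3 and 5) it ended, at adjusted p up to 0.114.

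The polymerases behaved unequally. Pola1, the catalytic subunit of the priming polymerase alpha (X chromosome, 93304767 to 93632155), had the largest fitted decrease of the 44 genes. It had 38.2, 80.1, 54.9, 123 and 35.8 CPM in p52Ki replicates 1 to 5, against 243, 171, 199 and 212 CPM in WT replicates 1 to 4. Every p52Ki library lay below every WT library. The log2 fold change was -1.64 (SE 0.33, edgeR adjusted p = 0.0129), or 3.11-fold lower in p52Ki. Its partner Pola2, the regulatory subunit, had 117, 166, 108, 136 and 91.5 CPM in p52Ki, against 229, 158, 197 and 146 CPM in WT, with p52Ki replicate 2 inside the WT range (-0.56, SE 0.20, edgeR adjusted p = 0.122). Prim1, the primase that makes the RNA primer, averaged 71.8 ± 22.2 CPM in p52Ki and 139 ± 43.0 CPM in WT and did not pass (-0.95, SE 0.28, edgeR adjusted p = 0.0591), though it did without WT replicate 2 or p52Ki replicate 4 (edgeR adjusted p = 0.0298 and 0.0451). Prim2, the other primase subunit, was at 40.3 ± 11.7 CPM in p52Ki and 71.7 ± 42.8 CPM in WT (edgeR adjusted p = 0.212), with a WT mean raised by replicate 4 at 133 CPM.

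None of the 4 genes of polymerases delta and epsilon passed (edgeR). Pold1, the catalytic subunit of polymerase delta, which copies the lagging strand, had 309, 457, 448, 455 and 355 CPM in p52Ki, against 468, 435, 405 and 468 CPM in WT. Replicates 2, 3 and 4 of p52Ki were within the WT range, and the 95% interval of the log2 fold change ran from -0.45 to 0.18 (edgeR adjusted p = 0.678). Pold2, the accessory subunit, averaged 80.5 ± 18.3 CPM in p52Ki and 105 ± 20.4 CPM in WT (edgeR adjusted p = 0.323). Pole, the catalytic subunit of the leading-strand polymerase epsilon, had 17.7, 95.2, 37.6, 69.1 and 28.7 CPM in p52Ki, against 109.6, 94.3, 52 and 95.2 CPM in WT. Its p52Ki libraries spread widely, with replicates 2 and 4 inside the WT range, and its log2 fold change of -0.82 had a wide 95% interval of -1.76 to 0.12 (edgeR adjusted p = 0.303). Pole2, its second subunit, had few reads, at 2.91 to 37.6 CPM in p52Ki and 19.2 to 36.0 CPM in WT, with the highest value in p52Ki replicate 5 (edgeR adjusted p = 0.449). The CPM ratio of Pold1 to Pola1 was 8.09, 5.71, 8.16, 3.71 and 9.90 in p52Ki replicates 1 to 5, against 1.92, 2.54, 2.03 and 2.20 in WT replicates 1 to 4. That ratio was higher in every p52Ki library than in any WT library; the pair was chosen after the values were seen, so it is given with no test.

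Replication protein A coats single-stranded DNA with 3 subunits, of which Rpa1, the large DNA-binding subunit, fell. Rpa1 had 272, 397, 275, 419 and 282 CPM in p52Ki, against 846, 553, 479 and 727 CPM in WT, without overlap (log2 fold change -0.99, SE 0.20, edgeR adjusted p = 0.0135). Rpa2, the middle subunit, had 84.5, 121, 76.4, 135 and 126 CPM in p52Ki, against 93.8, 111, 101 and 154 CPM in WT. The 2 ranges of Rpa2 largely coincided, with a 95% interval of -0.57 to 0.40 (edgeR adjusted p = 0.891). Rpa3, the smallest, was at 16.7 ± 6.96 CPM in p52Ki and 19.6 ± 2.35 CPM in WT, and its interval of -1.04 to 0.58 includes the size seen for Rpa1 (edgeR adjusted p = 0.797). The CPM ratio of Rpa2 to Rpa1 was also chosen after the values were seen. It ran from 0.278 to 0.447 in p52Ki libraries and from 0.111 to 0.212 in WT libraries. Other ratios computed overlapped between genotypes. That of Gins3 to Gins2 was 0.566 to 1.06 in p52Ki libraries and 0.369 to 0.575 in WT libraries. That of Mcm10 to Mcm2 was 0.0577 to 0.266 in p52Ki libraries and 0.162 to 0.278 in WT libraries.

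**Figure D3:**
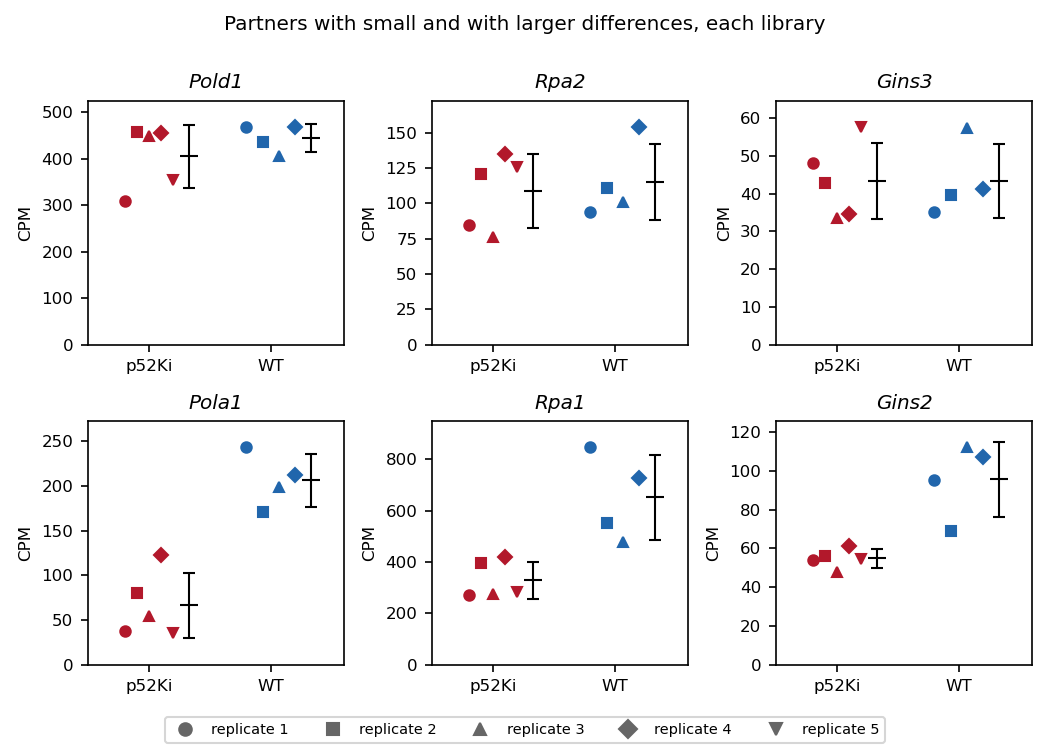
CPM in each library of 3 genes with small differences (top: Pold1, Rpa2, Gins3) above a partner from the same process that fell (bottom: Pola1, Rpa1, Gins2), with mean and SD; p52Ki is left of WT and the genes were picked after their values were seen. Genotypes overlap in the top panels (log2 fold changes -0.13, -0.08, 0.00), and the bottom panels show p52Ki below WT throughout, at -1.64, -0.99 and -0.80.

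The sliding clamp and most of its loader fell. Pcna, the clamp that tethers polymerases and recruits many replication proteins, had 169.7, 244, 222, 308 and 229 CPM in p52Ki, against 414, 299, 441 and 462 CPM in WT. WT replicate 2 lay just under the highest p52Ki library, replicate 4, and Pcna fell by 0.78 on the log2 scale (SE 0.18, edgeR adjusted p = 0.0229). Rfc1, the large subunit of the loader (chromosome 5, 65261850 to 65335670), had 207, 267, 244, 296 and 204 CPM in p52Ki, against 517, 475, 559 and 463 CPM in WT. Its genotypes were far apart for their spread, and its adjusted p was the smallest of the 44 genes (-1.05, SE 0.14, edgeR adjusted p = 0.00253). Of the 4 small subunits, Rfc2 and Rfc3 fell, to 589 ± 54.6 CPM in p52Ki, against 870 ± 90.4 CPM in WT, for Rfc2, and to 96.1 ± 18.4 CPM in p52Ki, against 179 ± 38.4 CPM in WT, for Rfc3 (edgeR adjusted p = 0.0152 for each). The log2 fold change of Rfc2, -0.56 (SE 0.12), was the smallest in size among the 22 genes called. Rfc4 and Rfc5 were below WT in every p52Ki library, at 71.1 ± 19.8 CPM in p52Ki and 118 ± 13.6 CPM in WT for Rfc4, and 127 ± 41.1 CPM in p52Ki and 218 ± 28.4 CPM in WT for Rfc5, but did not pass (edgeR adjusted p = 0.0686 and 0.0542). Exons of Lat2, Eif4a2 and Wsb2 on the other strand cover 15.1%, 12.7% and 10.7% of the exonic bases of Rfc2, Rfc4 and Rfc5. Without strand the reads of those stretches cannot be assigned to either gene. Lat2 averaged 411 ± 30.0 CPM in p52Ki and 435 ± 52.3 CPM in WT, and Eif4a2 543 ± 90.1 CPM in p52Ki and 463 ± 41.1 CPM in WT. Wsb2 averaged 24.7 ± 6.11 CPM in p52Ki and 25.1 ± 22.0 CPM in WT. Pcna lost its call in the fits lacking replicate 1, 3 or 4 of WT or replicate 3 or 5 of p52Ki (adjusted p up to 0.0721), as did Rfc2 without WT replicate 4 (0.0579), and Rfc5 passed without p52Ki replicate 4 (0.0218). The processed pseudogene Pcna-ps2 had 239 counts over the 9 libraries, and reads it may share with Pcna could not be followed in gene counts.

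Both genes that finish lagging-strand fragments fell. Lig1, the ligase that seals the nicks, had 147, 193, 129, 227 and 113 CPM in p52Ki, against 462, 274, 324 and 346 CPM in WT (log2 fold change -1.12, SE 0.22, edgeR adjusted p = 0.0123). Fen1, the nuclease that trims the flaps, had 150.4, 299.6, 218, 291 and 169.7 CPM in p52Ki, against 637, 396, 394 and 521 CPM in WT (-1.11, SE 0.23, edgeR adjusted p = 0.0148). Neither gene had a p52Ki library in the WT range. Gm10143, annotated antisense to Fen1, covers 78.8% of the exonic bases of Fen1, and its counts, 228 ± 71.7 CPM in p52Ki and 466 ± 114 CPM in WT (edgeR adjusted p = 0.0209), cannot be told apart from those of Fen1 without strand.

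Of the genes that rebuild chromatin and copy DNA methylation behind the fork, 4 of 5 fell. Slbp, which binds the stem-loop of replication-dependent histone mRNA, had 227, 257, 287, 375 and 255 CPM in p52Ki, against 565, 498, 525 and 521 CPM in WT, a log2 fold change of -0.91 (SE 0.15, edgeR adjusted p = 0.00519). Uhrf1, which recruits the maintenance methyltransferase to new DNA, averaged 222 ± 66.8 CPM in p52Ki and 421 ± 90.7 CPM in WT (edgeR adjusted p = 0.0255). Hells, a chromatin remodeller needed for DNA methylation, averaged 84.8 ± 28.5 CPM in p52Ki and 164 ± 16.0 CPM in WT (edgeR adjusted p = 0.0238). The highest p52Ki library of Uhrf1, replicate 4 at 324 CPM, lay above the lowest WT library, replicate 3 at 316 CPM. The 2 subunits of the histone chaperone CAF-1 had close estimates on either side of the threshold: Chaf1b was at -0.79 (SE 0.22, edgeR adjusted p = 0.0496) and Chaf1a at -0.84 (SE 0.29, edgeR adjusted p = 0.0995). Chaf1b had 54.3, 102, 50.1, 79.8 and 55.8 CPM in p52Ki, against 115, 119, 127 and 113 CPM in WT. Exons of Ubxn6 on the other strand cover 52.5% of the exonic bases of Chaf1a, and without strand those reads cannot be assigned to either gene. Ubxn6 averaged 60.1 ± 18.5 CPM in p52Ki and 74.6 ± 19.7 CPM in WT (edgeR adjusted p = 0.578). The calls of Uhrf1, Hells and Chaf1b ended in 7, 7 and 8 of the 9 fits without 1 library (adjusted p up to 0.0754, 0.0631 and 0.123), holding only without WT replicate 3 or p52Ki replicate 4 for Uhrf1, without WT replicate 1 or p52Ki replicate 4 for Hells and without p52Ki replicate 2 for Chaf1b, and Chaf1a passed without p52Ki replicate 4 (0.0426). Chaf1b also lost its call with DESeq2 size factors (0.056), upper-quartile scaling (0.0617), no filter on low counts (0.0714) and immunoglobulin and T cell receptor genes removed (0.0552).

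The genes that passed were mostly those with more reads. Of the 15 genes with a mean of at least 200 CPM over the 9 libraries, 14 fell, and the exception was Pold1. Of the 10 genes from 100 to 200 CPM, 4 fell, and of the 19 genes under 100 CPM, 4 fell. Over all genes tested, at all levels together, 4.04% were called lower. That share was not worked out by class, so the counts by class have no background to set them against. The median log2 fold changes of these classes were -1.0, -0.87 and -0.80, and the median standard errors 0.21, 0.25 and 0.30. Genes with fewer reads had larger errors, and a missed threshold among them does not show that they did not differ.

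**Figure D4:**
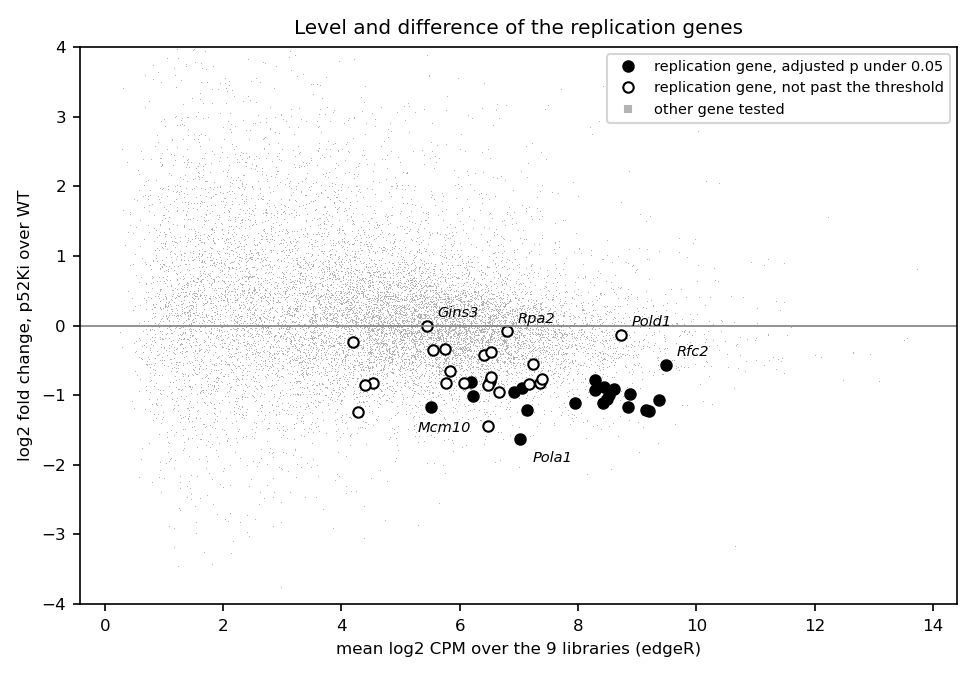
Log2 fold change, p52Ki over WT, against mean log2 CPM for the 44 replication genes (circles, filled where adjusted p was under 0.05) and all other genes tested (grey dots; 141 genes beyond 4 log2 units are not drawn). Filled circles dominate at high level, where Pold1 is the open exception, and Pola1 is the lowest circle at -1.64.

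The libraries of p52Ki differed among themselves over the whole set. The median deviation of the 44 genes from their WT means, on a log2(CPM + 1) scale, was -1.25, -0.64, -1.01, -0.39 and -1.06 in p52Ki replicates 1 to 5, and 0.07, -0.08, -0.04 and 0.08 in WT replicates 1 to 4. p52Ki replicate 4 held the highest p52Ki value of 32 genes and the lowest of 0, and p52Ki replicate 1 the lowest value of 20 genes and the highest of 0. The medians of the p52Ki libraries thus lay farther apart than those of the WT libraries, while single genes departed from that order: Gins3 and Pole2 had their highest p52Ki value in replicate 5. The 44 genes took 0.522%, 0.747%, 0.627%, 0.891% and 0.546% of all counts in the p52Ki libraries, against 1.31%, 1.11%, 1.10% and 1.17% in the WT libraries. p52Ki replicate 4 also had the most genes detected, 16634. The part of that in its values was not tested.

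**Figure D5:**
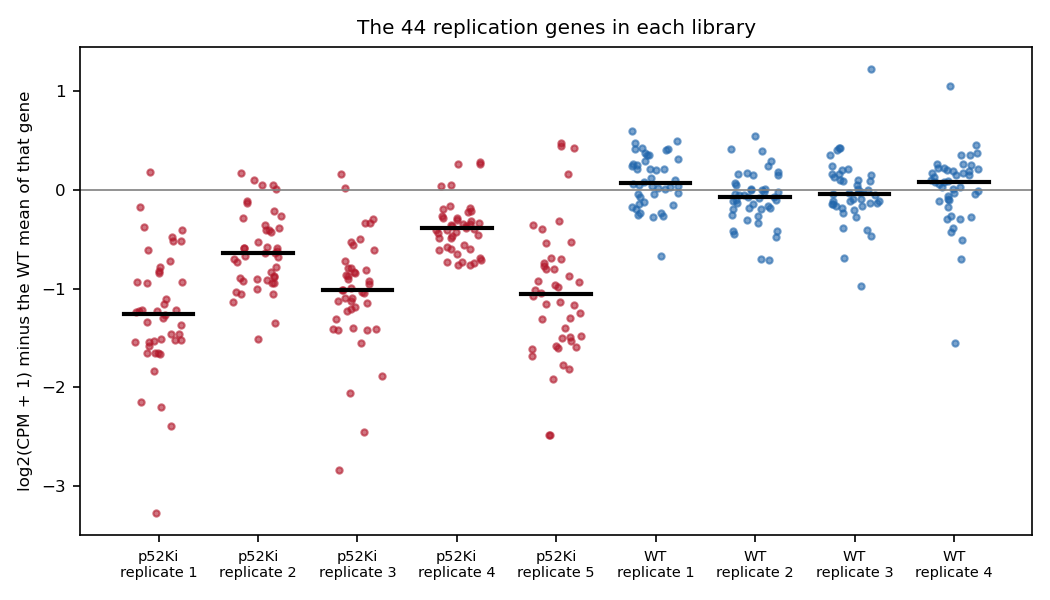
Each point is 1 of the 44 replication genes in 1 library, as log2(CPM + 1) minus its WT mean, with the median of the 44 as a bar; p52Ki libraries are on the left. The p52Ki medians run from -1.25 (replicate 1) to -0.39 (replicate 4), below WT medians of -0.08 to 0.08.

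Further genes of the same process, outside the 44, were also examined. Of 42 such genes listed, 41 were tested (Chtf8 was not), of which 14 fell and 0 rose. Over all genes tested, the shares called were 4.04% lower and 4.49% higher. Their log2 fold changes had a median of -0.75 and were below 0 in 40 of the 41, against 48.2% of all genes tested. The exception was Rnaseh2c at 0.08 (edgeR adjusted p = 0.919). In 12 of the 41 every p52Ki library lay below every WT library, against 6.53% of all genes tested. Dnmt1, the maintenance DNA methyltransferase that Uhrf1 recruits, averaged 273 ± 113 CPM in p52Ki and 704 ± 73.3 CPM in WT (-1.37, SE 0.26, edgeR adjusted p = 0.00906), and Asf1b, a histone chaperone that hands histones to CAF-1, 149.9 ± 61.1 CPM in p52Ki and 377 ± 80.2 CPM in WT (edgeR adjusted p = 0.0112). Cdc7, the kinase that fires licensed origins, averaged 76.2 ± 11.8 CPM in p52Ki and 136 ± 21.8 CPM in WT (-0.84, SE 0.18, edgeR adjusted p = 0.0152). Dna2, a nuclease of lagging-strand processing, Atad5, which unloads PCNA, and Wdhd1, which links polymerase alpha to the helicase, changed by -1.70, -1.33 and -1.17 (edgeR adjusted p = 0.0171, 0.0177 and 0.0185). Of the genes with the highest CPM that did not pass, Supt16, a subunit of the histone chaperone FACT, had a log2 fold change of -0.14 (edgeR adjusted p = 0.687), and Ddb1, Rbbp4 and Cdca7 had values of -0.50, -0.42 and -0.75 (edgeR adjusted p = 0.133, 0.119 and 0.0616). With 1 p52Ki library left out, replicates 1 to 5 in turn, 8, 12, 6, 18 and 8 of them fell, and with 1 WT library left out, replicates 1 to 4 in turn, 6, 10, 9 and 7 fell.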

How the data were processed

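RNA from 5 p52Ki and 4 WT libraries was prepared by SMART-Seq v2 and Nextera XT, per the labels' protocols, a chemistry that keeps neither strand nor molecular identifiers. The submitters' processing notes name HISAT2 2.1.0, SAMtools 1.8, Subread 1.6.2, featureCounts and GRCm38; the sources used here do not give annotation release or strand setting. Deposited by the authors were gene-level raw counts and a log2 CPM table. The deposited log2 values equalled edgeR log CPM (TMM, prior count 2) to within 4.97e-14 over the same 12849 genes.

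Counts were fitted in R 4.3.3 with edgeR 4.0.16 (filterByExpr, TMM, robust quasi-likelihood F test, no covariate), adjusted over 12849 genes. Standard errors are the size of the log2 fold change divided by the root of F. CPM are on TMM-scaled libraries. Intervals are 95%. Lists, members and the rule for named genes (all 44, and of the further genes the 6 called with smallest p and the 4 others of highest level) were chosen with earlier results of these data known. Alternatives used limma 3.58.1, DESeq2 1.42.0, other scalings and filters, a GC and length correction, a replicate block and each library left out. Positions and exon lengths are from GENCODE M21 (GRCm38), which held all 55536 identifiers. Depth was 4492160 to 7937579 counts.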

Additional observations from a re-analysis of the deposited data

Results flagged for a closer look

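Among 94 groups of libraries examined (each of the 44 genes and 3 library measures, in p52Ki and in WT), 5 held a library far from the others of its genotype by Dixon's test at 95%, a rule that flags about 1 in 20 groups by chance. Orc1 was low in p52Ki replicate 5, at 6.74 CPM. Clspn was high in p52Ki replicate 4, at 69.1 CPM. Mcm2 was high in WT replicate 2, at 778 CPM. Rfc3 was high in WT replicate 3, at 237 CPM. The share of counts on mitochondrial genes was low in p52Ki replicate 2, at 1.64%. The calls of Mcm2 and Rfc3 held without those WT libraries, and Orc1 and Clspn did not pass with or without those p52Ki libraries (edgeR).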

How the results depend on the processing

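The count of 22 replication genes lower in p52Ki was 21 to 25 under the other scalings and filters, limma-voom, limma-trend and the GC and length correction, 28 with DESeq2 and 2 with a replicate block (Mcm2 and Rfc1), and 12 to 26 with 1 library left out. No setting called a member higher. The median log2 fold change of the 44 stayed from -1.0 to -0.77. Of the 22 calls, 21 held in each setting without a library left out, other than the replicate block. The settings without a library left out numbered 10, the replicate block included, and some genes not called in the main fit passed in them. Rfc5 passed in 5 of the 10, Cdc45 and Mcm10 in 3 each, Prim1 in 2, and Dtl and Rfc4 in 1 each (DESeq2). The further replication genes lower in p52Ki numbered 14, 0 with the replicate block and 6 to 18 with 1 library left out. Of all genes, 1096 passed, 2042 with DESeq2, 129 with the replicate block and 625 to 1108 with 1 library left out, and 52.6% of the 1096 were higher, 75.2% of the 129. The replicate block leaves 3 residual degrees of freedom against 7, and the labels do not say that equal numbers share a source: same-numbered libraries had correlations of -0.042 to -0.00898 between their deviations from the genotype means, and others -0.0472 to 0.0734. The estimate of Gins3 turned positive, at 0.03 (DESeq2 size factors, and DESeq2), 0.04 (upper-quartile scaling, and at least 10 CPM in 4 libraries), 0.01 (no filter, and immunoglobulin and T cell receptor genes removed) and 0.09 (GC and length correction), and, with 1 library left out, its estimates ran from -0.1 to 0.18, at or above 0.00 without WT replicate 3 or p52Ki replicate 2, 3 or 4. That of Rpa2 ran from -0.17 to 0.11 with 1 library left out, and was 0.11 without WT replicate 4 and 0.04 without p52Ki replicate 3. Depth limits the rarest members, such as Pole2 and Orc1.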
